A study of Homo sapiens with 6 samples.

Results

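The genes described here are 10 transcripts that report on signalling from RAS to the kinase ERK. Products of the phosphatase genes DUSP4, DUSP5 and DUSP6, the Sprouty genes SPRY1, SPRY2 and SPRY4, and SPRED1 and SPRED2 also damp it. The others are the transcription factor genes ETV4 and ETV5. All 10 were chosen by gene symbol, with earlier results of these data known, and were found among the 38557 symbols of the deposited tables. Poly(A) RNA was sequenced from T-24 cells, an established line from a human bladder cancer that is labelled as adherent, epithelial and wild type. Cells received CCT068127 at 1 µM (3 libraries) or its vehicle DMSO (3 libraries), in both cases for 48 h. CCT068127 is known to inhibit CDK2 and CDK9, kinases of the cell cycle and of transcription, and the comparison asks which transcripts differ between treated and vehicle cells. Both groups are the same single line with no other agent, and the labels describe the replicates as independent biological ones.

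RAS, when bound to GTP, recruits RAF, which activates MEK and then ERK. ERK raises transcription of genes that act back on the pathway: DUSP proteins remove phosphate from ERK, Sprouty proteins act between receptors and RAF, and SPRED proteins bring the RAS inactivator neurofibromin (NF1) to the membrane. ETV4 and ETV5 are ETS-family transcription factors whose expression follows ERK activity, and T-24 is known for carrying a mutant HRAS.

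SPRY1 is shown first because it had the largest fold difference of the 10 genes, with SPRY2 beside it as a family member with a smaller one. RefSeq promoter windows on GRCh38.p14 matched 6 of the 10 genes, with 10 start sites between them. The 250 bases before 1 start of each gene are printed 5′ to 3′ on the gene's strand, and capitals mark the ETS core motif GGAA on either strand, read as TTCC when it lies on the other strand. The SPRY1 window is chr4:123396545-123396794 on the plus strand, and the SPRY2 window is chr13:80341127-80341376 on the minus strand.
SPRY1: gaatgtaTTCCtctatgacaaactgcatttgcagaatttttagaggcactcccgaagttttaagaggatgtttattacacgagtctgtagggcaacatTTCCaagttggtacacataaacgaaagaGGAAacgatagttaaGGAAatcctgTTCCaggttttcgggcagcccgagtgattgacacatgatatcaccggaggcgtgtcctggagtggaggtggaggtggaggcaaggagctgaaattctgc
SPRY2: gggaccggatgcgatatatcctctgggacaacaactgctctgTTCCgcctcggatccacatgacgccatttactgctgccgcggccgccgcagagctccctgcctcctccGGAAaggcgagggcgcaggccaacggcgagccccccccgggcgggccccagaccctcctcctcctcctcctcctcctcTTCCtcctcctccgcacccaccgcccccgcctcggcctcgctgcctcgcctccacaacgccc

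The SPRY1 window held 5 copies of GGAA and was 45.6% G and C. The SPRY2 window held 3 copies and was 70.4% G and C, and 1 of its copies lay within the longer ETS form CCGGAA, 142 to 137 bases before the start. It also held the CRE core TGACG, 190 to 186 bases before the start. Of 34943 RefSeq windows of this length outside chromosome 8, searched on both strands, 92.7% held GGAA, 14.5% CCGGAA and 21.2% TGACG. The AP-1 motif TGANTCA (6.59% of windows) and the serum response CArG box (1.16%) were not in either window. CCGGAA holds GGAA, so these counts overlap. The window of another SPRY1 start, not printed, held CCGGAA 67 to 62 bases before that start. Windows of the other SPRY2 starts held none, so this contrast depends on the start printed. A match describes the letters and is not evidence of binding.

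The libraries differed widely in depth, with 371044040 and 411097626 counts for DMSO replicates 1 and 2 and between 1966742 and 5955296 in the other 4, so a count of 0 allows up to 0.00665 to 1.71 CPM (counts scaled to an effective library total of 1e6), taking 3 counts as the limit and covering counting error only. The epithelial keratin KRT8 had 807.4 to 936.8 TPM (transcript abundance scaled for length and library) in DMSO and 1820 to 2399 TPM in CCT068127, while the epithelial adhesion gene CDH1, a defining marker of the labelled cell type, had at most 0.14 TPM in any library. Summed over 6 leukocyte markers, TPM was 9.85 to 15.46 in DMSO and 47.75 to 48.25 in CCT068127. Most of that sum in CCT068127 was CD68 (40.06 to 43.3 TPM), whereas the pan-leukocyte gene PTPRC had at most 0.52 TPM and CD3E at most 0.05 TPM. Summed over 6 fibroblast and smooth muscle markers, TPM was 11.34 to 14.89 in DMSO and 2 to 2.65 in CCT068127, with DCN and LUM at 0 in every library. Over 4 endothelial markers it was 4.66 to 5.67 in DMSO and 2.26 to 5.09 in CCT068127, with KDR at 0. The part of these markers in the results was not tested.

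In CCT068127-treated cells, 7 of the 10 genes were lower than in DMSO, none was higher and 3 were not called (edgeR quasi-likelihood test, adjusted p under 0.05, n = 3 per group). All 10 passed the filter on low counts, SPRY1 only through its DMSO libraries. The 7 were DUSP4, DUSP6, SPRY1, SPRY2, SPRED1, SPRED2 and ETV4, and the others were DUSP5, SPRY4 and ETV5. The share, 70.0%, stands beside 32.8% of the 13597 tested genes called lower and 31.9% called higher. The median log2 fold change of the 10 genes was -0.51, beside -0.05 over all tested genes, and 2 of the 10 (SPRY1 and ETV4) fell at least 2-fold, beside 12.9% of all tested genes, with ETV4 just at that size. In scaled CPM, the groups did not overlap, with CCT068127 lower, for 8 of the 10 (80.0%), beside 36.0% of all tested genes. In such bulk RNA, fewer cells with a transcript and less of it per cell cannot be told apart, and no spike-in is named, so each change is relative to the other transcripts of a library.

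**Figure D1:**
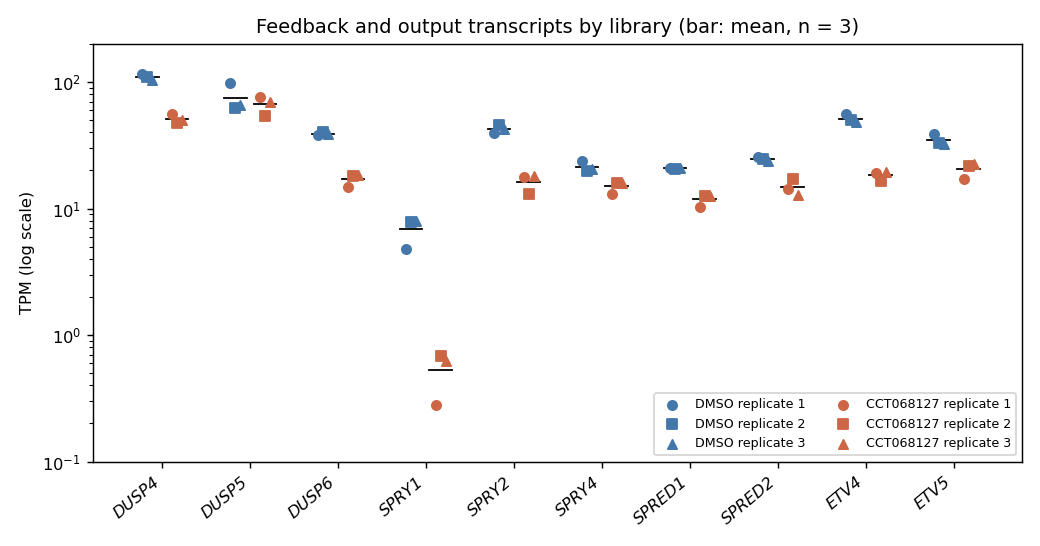
TPM on a log axis for each of the 10 genes by library, with blue symbols for DMSO, orange symbols for CCT068127, the symbol shape for the replicate number and a bar for the mean of 3 libraries. The groups do not overlap for 9 of the 10 genes, all but DUSP5, beside 57.5% of all tested genes that are lower without overlap in TPM, and SPRY1 lies lowest in both groups, at 4.83 to 7.93 TPM in DMSO and 0.28 to 0.68 TPM in CCT068127.

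Among the phosphatases, DUSP6 and DUSP4 fell and DUSP5 did not pass the test. DUSP6 (chr12:89347235-89352501, minus strand), a cytoplasmic phosphatase selective for ERK, had 64.9, 70.2 and 65.4 CPM in DMSO replicates 1 to 3 and 36.1, 42.8 and 43.5 CPM in CCT068127 replicates 1 to 3. The lowest DMSO library lay well above the highest treated one. The log2 fold change of DUSP6 was -0.73 ± 0.11 (SE, n = 3 per group), a 1.65-fold lower level (edgeR adjusted p = 2.32e-04). DUSP4, a nuclear phosphatase of ERK and other MAP kinases, had 305.8, 295.8 and 270.0 CPM in DMSO and 214.0, 173.7 and 185.6 CPM in CCT068127. These groups were also separate. DUSP4 had a log2 fold change of -0.60 ± 0.11, or 1.52-fold lower (edgeR adjusted p = 6.04e-04).

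DUSP5 (chr10:110497907-110511533, plus strand), a nuclear phosphatase that also anchors ERK, had 112.1, 72.7 and 75.3 CPM in DMSO and 127.2, 85.7 and 111.5 CPM in CCT068127. DMSO replicate 1 lay above DMSO replicates 2 and 3, within the range of the treated libraries, so the groups overlapped. The log2 fold change of DUSP5 was 0.33 (95% confidence interval -0.09 to 0.75; edgeR adjusted p = 0.148). It passed as higher without DMSO replicate 1, at 0.55 (edgeR adjusted p = 0.00693), and with the replicate number as a block, at 0.33 (edgeR adjusted p = 0.036). On log2(TPM + 1) values its direction turned, to -0.16 (limma adjusted p = 0.506). The direction of DUSP5 thus differed between counts and TPM, and its call depended on 1 control library and on the block. On both scales DUSP5 lay above the median of all tested genes, -0.05 with TMM counts and -0.46 on log2(TPM + 1).

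SPRY1 and SPRY2 fell, whereas SPRY4 had nearly equal levels in both groups. SPRY1 (chr4:123396795-123403760, plus strand), an inhibitor of growth factor receptor signalling whose promoter window is printed above, had 2819, 5251 and 72 counts in DMSO and 3, 2 and 4 counts in CCT068127. In CPM these are 6.83, 11.6 and 10.7 in DMSO and 0.611, 1.14 and 0.947 in CCT068127. Every treated library was at or below 4 counts, and the shallow DMSO replicate 3 stood with the deep DMSO libraries. The log2 fold change of SPRY1 was -3.53 ± 0.42 (edgeR adjusted p = 3.6e-05), at rank 65 from the lowest of 13597 genes. Its fold from pooled counts (8142 in DMSO against 9 in CCT068127) was 11.3, with a 95% counting interval from 5.95 to 24.7. Against DMSO replicate 3 alone, a library of like depth, it was 13 (6.48 to 29.6). The size of the SPRY1 difference is therefore known only broadly.

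SPRY2 (chr13:80335976-80341126, minus strand), the Sprouty gene with the highest DMSO level in TPM, had 42.1, 50.2 and 45.8 CPM in DMSO and 27.9, 19.4 and 27.5 CPM in CCT068127. The groups were separate, with CCT068127 replicate 2 lowest. SPRY2 had a log2 fold change of -0.84 ± 0.14, or 1.79-fold lower (edgeR adjusted p = 4.18e-04). SPRY4 (chr5:142310430-142325021, minus strand), a further inhibitor of the pathway, had 55.4, 47.1 and 47.9 CPM in DMSO and 44.0, 52.0 and 52.8 CPM in CCT068127. The groups of SPRY4 overlapped. Its log2 fold change was -0.03 (95% confidence interval -0.30 to 0.24; edgeR adjusted p = 0.841), which leaves room for a modest change either way. With scaling by library totals SPRY4 passed as lower, at -0.34 (edgeR adjusted p = 0.0287), a value close to the median of all tested genes under that scaling (-0.36).

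Both SPRED genes fell, by smaller fitted amounts than SPRY1 and SPRY2, a difference between genes that was not tested. SPRED1 (chr15:38252836-38357249, plus strand), a partner of neurofibromin, had 77.7, 77.6 and 77.0 CPM in DMSO and 55.6, 64.6 and 65.1 CPM in CCT068127. The DMSO libraries were nearly equal and all above the treated ones. SPRED1 had a log2 fold change of -0.34 ± 0.10, or 1.26-fold lower (edgeR adjusted p = 0.014). SPRED2 (chr2:65307175-65432599, minus strand), which acts in the same way, had 53.4, 52.7 and 49.6 CPM in DMSO and 40.8, 42.8 and 35 CPM in CCT068127. Its groups did not overlap either. SPRED2 had a log2 fold change of -0.41 ± 0.11, or 1.33-fold lower (edgeR adjusted p = 0.00819). With DMSO replicate 3 as the sole control both kept their direction, at -0.36 for SPRED1 and -0.37 for SPRED2, but neither was called (edgeR adjusted p = 0.179 and 0.194).

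Of the ETS factor genes, ETV4 fell and ETV5 narrowly missed the threshold. ETV4 (chr17:43527846-43546340, minus strand), a PEA3-group activator, had 55.6, 50.1 and 47.2 CPM in DMSO and 26.7, 21.7 and 26.7 CPM in CCT068127. The lowest DMSO library stood far above the highest treated one. ETV4 had a log2 fold change of -1.0 ± 0.12, or 2-fold lower (edgeR adjusted p = 4.9e-05). ETV5 (chr3:186046314-186109089, minus strand), its close relative, had 74.5, 64.2 and 62.0 CPM in DMSO and 47.9, 58.3 and 59.9 CPM in CCT068127. The groups of ETV5 did not overlap, but CCT068127 replicate 3 came near DMSO replicate 3. Its log2 fold change was -0.29 ± 0.12 (95% confidence interval -0.56 to -0.01; edgeR adjusted p = 0.0611). ETV5 passed as lower without CCT068127 replicate 2 (-0.35, edgeR adjusted p = 0.0393), with DESeq2 (-0.32, adjusted p = 0.0477) and with library totals (-0.60, edgeR adjusted p = 0.00173). Under library totals the median of all tested genes was -0.36. ETV5 was not called with DESeq2 size factors, upper-quartile scaling or a replicate block (edgeR adjusted p = 0.0875, 0.0592 and 0.1). Nor was it called with limma-voom (adjusted p = 0.0679) or when any other single library was left out.

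Coordinates above are RefSeq gene spans on GRCh38.p14. No source used here gives the strand setting of the counting, so reads of overlapping genes cannot be told apart. In GENCODE v29, ETV4 shares 68 of 3607 exonic bases (1.89%) with DHX8 on the other strand, which had 13.99 to 24.11 TPM, and ETV5 shares 164 of 5802 (2.83%) with DGKG, which had at most 1.06 TPM. SPRY4 and SPRY4-AS1 (at most 1.2 TPM) share no exonic base, and the antisense genes at DUSP6 (AC024909.2) and ETV5 (ETV5-AS1), AC012370.1 at SPRED2 and small RNA genes at SPRY4 and ETV5 were not analysed here.

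How many of the 10 genes count as lower depended on the scaling. With library totals, 9 of 10 were lower, beside 48.3% of all tested genes, and on log2(TPM + 1) values 9 of 10 were lower, beside 51.9%. The distance from the all-gene median moved less on these scales. The median of the 10 minus that of all tested genes was -0.45 with TMM scaling, -0.46 with library totals (-0.82 against -0.36) and -0.47 on log2(TPM + 1) (-0.93 against -0.46). In fits that kept low-count genes it was -0.25 (edgeR), -1.15 (DESeq2) and -0.89 (log2(TPM + 1)). DUSP5 was the 1 gene of the 10 not called lower on either of those scales. With DMSO replicate 3 as the sole control, where that lone library is assumed to vary like the treated group, 5 of the 10 were called lower, beside 18.9% of the genes tested in that fit.

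**Figure D2:**
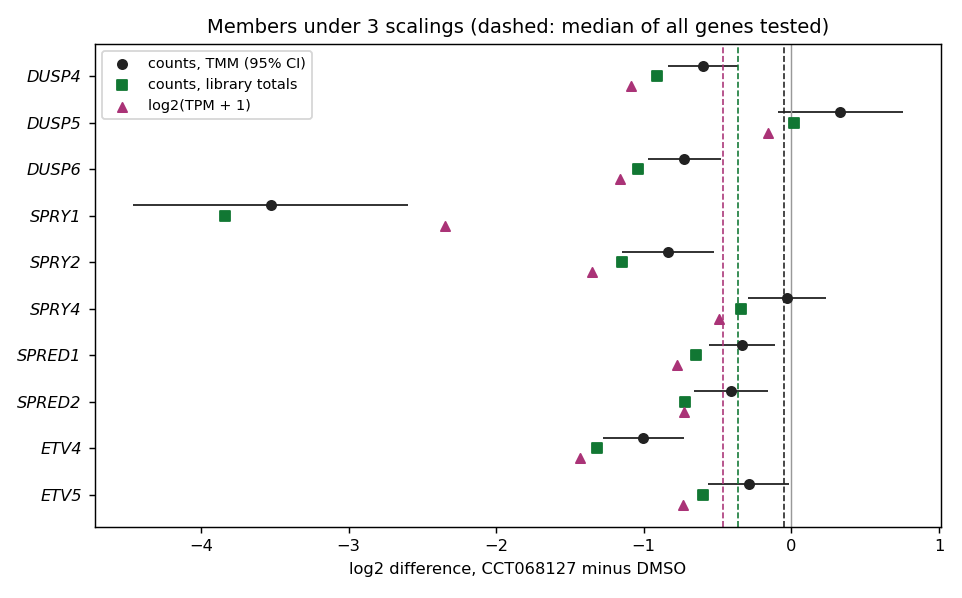
Log2 difference of each gene, CCT068127 minus DMSO, with TMM-scaled counts (circles, with 95% confidence intervals), counts scaled by library totals (squares) and log2(TPM + 1) (triangles), and dashed lines for the median of all tested genes on each scale. For all genes but SPRY1 the TPM values lie to the left of the TMM values by an amount near the shift of the dashed lines, from -0.05 to -0.46, and SPRED2 moves least.

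Levels can be compared between genes in TPM, which accounts for transcript length. In DMSO, DUSP4 was highest at 109.7 ± 6.59 TPM (SD, n = 3), followed by DUSP5 at 75.2 ± 19.6 and ETV4 at 51.3 ± 4.07, each apart from the next in every library. SPRY2 (42.8 ± 3.26), DUSP6 (39.2 ± 1.22) and ETV5 (34.6 ± 3.56) followed, and neighbours in that order overlapped. SPRED2 (24.8 ± 0.935) came next, then SPRY4 (21.3 ± 2.06) and SPRED1 (20.8 ± 0.230), which overlapped, and SPRY1 was lowest at 6.85 ± 1.75.

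In CCT068127, DUSP5 (66.7 ± 11.9 TPM) and DUSP4 (51.2 ± 4.47) overlapped at the top of the order. The next 6 genes lay close together, with each overlapping the next, from ETV5 at 20.4 ± 2.79 to SPRED2 at 14.7 ± 2.10. SPRED1 (11.8 ± 1.35) and SPRY1 (0.527 ± 0.216) were lowest. Summed over all 10 genes, TPM was 461.6, 414.5 and 403.8 in DMSO and 239.5, 216.2 and 240.5 in CCT068127.

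Within families, the shares of DUSP4, DUSP5, all 3 Sprouty genes, ETV4 and ETV5 did not overlap between the groups, whereas those of DUSP6, SPRED1 and SPRED2 did. Shares within a family add up to the whole and are not independent, so those of ETV4 and ETV5 mirror each other. How often shares separate in other gene families was not examined. DUSP5 gave 33.2% ± 4.96 of the summed TPM of the 3 phosphatases in DMSO and 49.2% ± 3.62 in CCT068127. Of the summed Sprouty TPM, SPRY1 gave 9.60% ± 2.19 in DMSO and 1.66% ± 0.706 in CCT068127, while SPRY4 gave 30.2% ± 4.11 and 47.1% ± 6.14. ETV5 gave 40.3% ± 0.617 of the ETV4 and ETV5 sum in DMSO and 52.6% ± 4.87 in CCT068127. The share of DUSP4 was 49.1% ± 2.87 in DMSO and 38.0% ± 1.62 in CCT068127, and that of SPRY2 was 60.2% ± 2.27 and 51.2% ± 6.81. SPRED1 gave 45.6% ± 0.786 of the SPRED sum in DMSO and 44.6% ± 4.30 in CCT068127.

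A ratio of 2 genes within a library does not depend on how libraries are scaled, although at low levels it depends on the pseudocount, and 6 ratios between family members were compared. The log2 TPM ratio of ETV5 to ETV4 was -0.53, -0.60 and -0.57 in DMSO and -0.16, 0.40 and 0.20 in CCT068127. That of SPRY4 to SPRY2 was -0.74, -1.22 and -1.04 in DMSO and -0.46, 0.29 and -0.19 in CCT068127. Both ratios were higher in every treated library than in any DMSO library, by 0.72 and 0.88 on average. The ratio of SPRY4 to SPRY1 was higher by 2.99 on the log2 scale, from a mean of 1.66 ± 0.531 to 4.65 ± 0.402 (SD, n = 3), with few SPRY1 counts behind it, and by 1.86 when the pseudocount was 1 TPM in place of 0.1. The ratio of DUSP6 to DUSP5 was lower by a mean log2 difference of -1.04, and its groups were also apart. Ratios of DUSP6 to DUSP4 (difference -0.10) and of SPRED1 to SPRED2 (-0.06) overlapped between the groups. For the 4 ratios that were apart the exact two-sided permutation p was 0.1, the smallest that 3 against 3 allows, and 0.15 after adjustment over the 6, so none could reach 0.05. For the other ratios it was 0.8. How often the ratios of other gene pairs separate between the groups was not examined. The pairs with DUSP6 in common and those with SPRY4 in common are not independent.

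**Figure D3:**
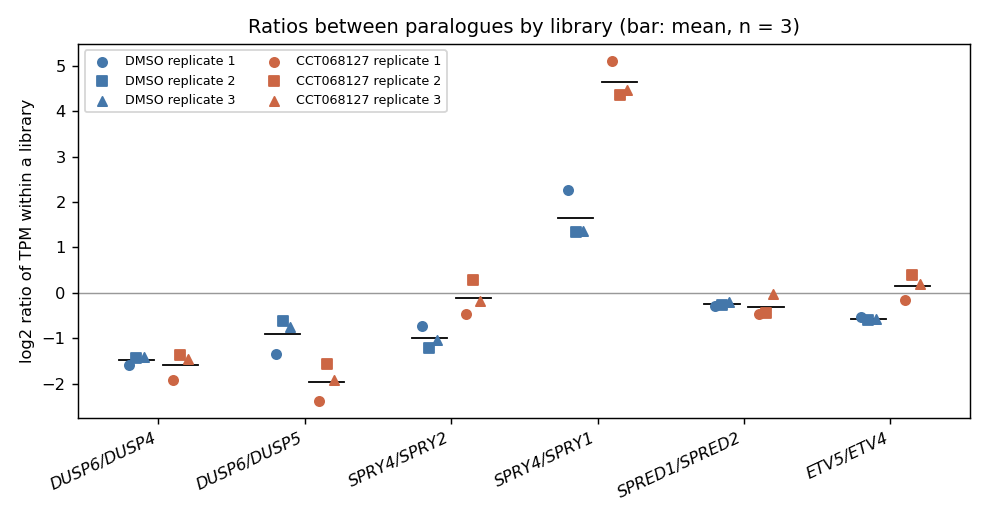
Log2 ratio of TPM between 2 genes of a family within each library, with blue symbols for DMSO, orange symbols for CCT068127, the symbol shape for the replicate number and a bar for the mean of 3 libraries. The groups are apart for DUSP6/DUSP5, SPRY4/SPRY2, SPRY4/SPRY1 and ETV5/ETV4, and overlap for DUSP6/DUSP4 and SPRED1/SPRED2.

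Of 10 listed paralogues outside these genes, 8 were tested, 4 were lower and 2 higher, beside 32.8% lower and 31.9% higher over all tested genes, with a median log2 fold change of -0.23. ETV1, the other PEA3-group factor, fell from 24.1 ± 1.26 to 6.48 ± 0.176 CPM (SD, n = 3), with -1.90 ± 0.15 on the log2 scale (edgeR adjusted p = 1.48e-06). SPRY3, which passed the filter only through its DMSO libraries, also fell (-3.41 ± 0.46, edgeR adjusted p = 9.24e-05), from 1189, 1331 and 21 counts to 1 count in each treated library, a pooled counting fold of 10.6 (3.62 to 51.4). The JNK and p38 phosphatase gene DUSP16 (-0.78 ± 0.15) and SPRED3 (-0.74 ± 0.24) were the other two called lower. SPRED3 lost its call without CCT068127 replicate 1 or replicate 3 (edgeR adjusted p = 0.0959 and 0.106).

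DUSP1, a nuclear MAP kinase phosphatase and immediate early gene, rose in contrast to DUSP4 and DUSP6. It had 322, 199.0 and 224 TPM in DMSO and 740.0, 608 and 723 TPM in CCT068127, with no overlap between the groups. Its log2 fold change was 1.97 ± 0.17 (edgeR adjusted p = 4.36e-06), and its treated level lay above that of each of the 10 genes. DUSP7, a cytoplasmic ERK phosphatase, was called higher (0.38 ± 0.13, edgeR adjusted p = 0.021), but the call was lost without DMSO replicate 2 (0.0873), DMSO replicate 3 (0.0943) or CCT068127 replicate 1 (0.123). On log2(TPM + 1) the DUSP7 difference was -0.083.

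Other transcripts used as readouts of ERK output were more often higher than lower. Of 15 tested, 11 (73.3%) were higher, beside 31.9% of all tested genes, 3 lower and 1 not called, with a median log2 fold change of 0.64, which is 0.69 above that of all tested genes. On log2(TPM + 1) values 6 were higher and 3 lower, with a median of 0.18. Of 14394 genes on that scale 2474 were higher and 7472 lower, with a median of -0.46. The list thus lay 0.65 above all genes there. PLAUR, the urokinase receptor gene, rose from 30.2 ± 0.719 to 246.6 ± 10.2 CPM, or by 3.03 ± 0.10 on the log2 scale (edgeR adjusted p = 1.46e-08). IER3, an immediate early gene whose product binds ERK, rose by 2.43 ± 0.10, and LIF, a cytokine gene, by 1.39 ± 0.11. IL1A, another cytokine gene, fell (-1.09 ± 0.20, edgeR adjusted p = 6.47e-04).

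DUSP4, DUSP6, SPRY2, SPRY4, ETV4 and ETV5 belong, with PHLDA1, CCND1, EPHA2 and EPHA4, to a published expression score of MAPK pathway activity. The last 4 are in the ERK output list and are named after their values were seen. PHLDA1 (-0.37 ± 0.10, edgeR adjusted p = 0.00909) and the ephrin receptor gene EPHA4 (-1.60 ± 0.30, edgeR adjusted p = 0.00101) fell, although the call was lost for PHLDA1 with DMSO replicate 3 as the sole control (-0.29, edgeR adjusted p = 0.204) and for EPHA4 with limma-voom (-1.47, adjusted p = 0.0742). EPHA2 rose (1.73 ± 0.14, edgeR adjusted p = 1.97e-06). The cyclin D1 gene CCND1 was called higher by counts (0.49 ± 0.10, edgeR adjusted p = 0.00142), yet its TPM was 507.2 in DMSO and 507.4 in CCT068127, and on log2(TPM + 1) it differed by 0.01. Of the 10 score genes 6 were lower, 2 higher (EPHA2 and CCND1) and 2 not called by counts. Over all tested genes, 32.8% were lower and 31.9% higher. All score genes but PHLDA1, CCND1, EPHA2 and EPHA4 are among the 10 genes described above, so this count is not separate from theirs.

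**Figure D4:**
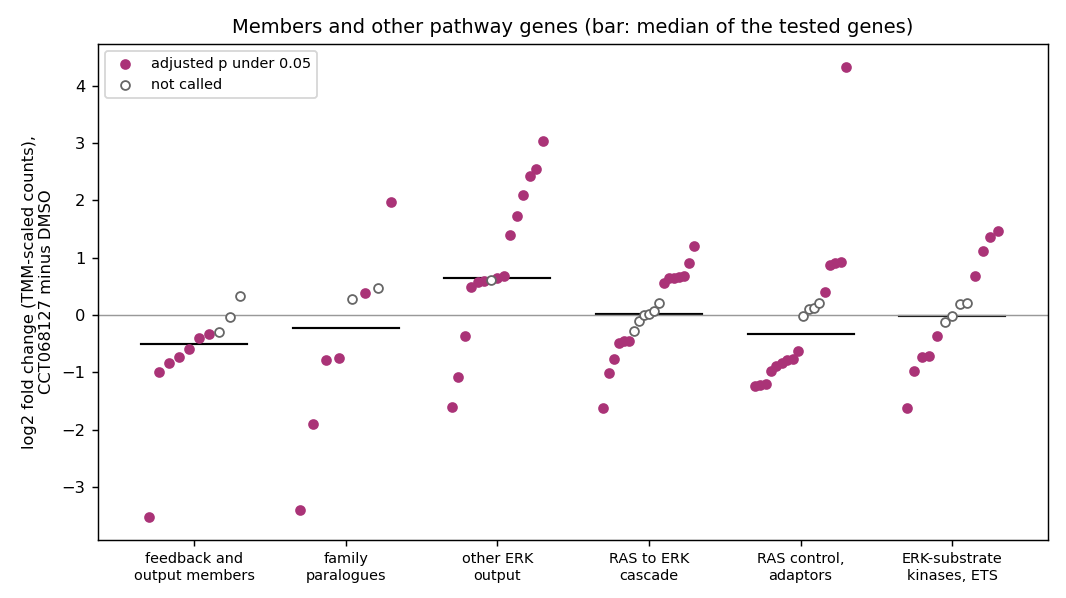
Log2 fold change with TMM-scaled counts, CCT068127 minus DMSO, of the 10 genes and the tested genes of 5 pathway lists, with filled points for adjusted p under 0.05, open points for the others and a bar for each median. The 10 genes have their median at -0.51, and the other ERK output genes have theirs at 0.64.

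Of 19 tested genes of the RAS to ERK cascade, 7 were higher and 6 lower, shares near those over all tested genes (31.9% and 32.8%), and the median log2 fold change was 0.01. The RAF inhibitor gene PEBP1 rose (1.2 ± 0.09, edgeR adjusted p = 1.38e-06). MAP2K1, which encodes the ERK kinase MEK1, was called higher by counts (0.67 ± 0.09, edgeR adjusted p = 9.31e-05), but on log2(TPM + 1) it was at 0.18 and not called (limma adjusted p = 0.0656). MAP2K2, the gene of the other ERK kinase MEK2, fell (-1.01 ± 0.14, edgeR adjusted p = 1.13e-04), without overlap between the groups in CPM or TPM. The scaffold gene KSR1 fell (-1.63 ± 0.18, edgeR adjusted p = 1.82e-05). HRAS had 305, 283 and 263 TPM in DMSO and 364, 275 and 307 TPM in CCT068127. These overlapped, although by counts HRAS was called higher (0.65 ± 0.13, edgeR adjusted p = 9.81e-04; limma adjusted p = 0.293 on TPM).

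Of 18 tested RAS exchange factors, GTPase-activating proteins and adaptors, 9 were lower and 5 higher, beside 32.8% and 31.9% of all tested genes, with a median of -0.33. The receptor adaptor gene SHC1 (-1.24 ± 0.11), the exchange factor gene SOS1 (-1.22 ± 0.13) and NF1 (-0.90 ± 0.14), the partner of SPRED proteins, fell (edgeR adjusted p = 3.33e-06, 1.63e-05 and 1.98e-04). The exchange factor gene RASGRP3, which passed the low-count filter only through its treated libraries, rose from 0.888 ± 0.152 to 16.2 ± 3.80 CPM, or by 4.33 ± 0.24 on the log2 scale (edgeR adjusted p = 1.98e-07). The others called higher were GRB2, CRKL, RASA2 and RASAL2, at 0.40 to 0.93 on the log2 scale, but RASAL2 (edgeR adjusted p = 0.0302) lost its call in most alternatives, among them the replicate block (0.0579), DESeq2 (0.057), limma-voom (0.0643) and leaving out DMSO replicate 2 (0.145) or 3 (0.0848) or CCT068127 replicate 2 (0.0845) or 3 (0.189). On log2(TPM + 1) RASAL2 turned to -0.14. ERRFI1, a feedback inhibitor of the EGF receptor, was at -0.03 ± 0.09 by TMM counts (edgeR adjusted p = 0.821). It passed as lower with library totals (-0.34, edgeR adjusted p = 0.00588), near the all-gene median there.

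Of 13 tested kinases and ETS factors that ERK phosphorylates, 4 were higher and 5 lower, near the shares over all tested genes (31.9% and 32.8%), with a median of -0.02. RPS6KA2, an RSK kinase gene (-1.62 ± 0.15), MKNK2, a kinase gene of translation control (-0.98 ± 0.10), and ERF, an ETS repressor gene (-0.71 ± 0.11), fell (edgeR adjusted p = 6.58e-06, 1.22e-05 and 2.85e-04), and ELK4 and RPS6KA3 were the other two called lower. RPS6KA4, which encodes the kinase MSK2, rose (1.46 ± 0.14, edgeR adjusted p = 6.05e-06), as did ELK3, by 1.36 ± 0.13. ETS1 was called higher by counts only (0.69 ± 0.14; on TPM 0.20, limma adjusted p = 0.266), and RPS6KA5 was called higher by counts and lower on TPM.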

How the data were processed

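Per the labels' protocols, total RNA was poly(A)-selected, libraries were made with an Ultra II kit (NEB), and sequencing used a NovaSeq. The authors deposited estimated counts per gene, held as whole numbers, and TPM values, scaled to a fixed library total by the authors, for the same 6 libraries. Per the submitters' processing notes, RSEM, Bowtie and hg38 were used. Their versions, the annotation and the strand setting are not given in the sources used here. Every column matched 1 sample by title.

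The count test was run with edgeR 4.0.16 (R 4.3.3). Its steps were filterByExpr (minimum count 10, or 1.74 CPM at the median library, in 3 libraries), TMM scaling, a robust quasi-likelihood fit of treatment over all 13597 genes, and Benjamini-Hochberg adjustment, with calls at 0.05. CPM values use TMM-scaled totals, and SE come from the F statistic. The fit was tested on simulated data. Ratios used log2(TPM + 0.1) and exact permutation tests (scipy 1.17.1), and counting intervals are exact 95% ones. Limma 3.58.1 and DESeq2 1.42.0 gave alternatives. Others were different scalings, no filter, TPM pseudocounts of 1 and 0.1, thinning of the deep DMSO libraries, DMSO replicate 3 as the sole control, a replicate block and leaving out each library. TPM fits kept genes of at least 1 TPM in 3 libraries unless unfiltered.

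The 10 genes, the 5 pathway lists and the tests were chosen with earlier results of these data known. Named pathway genes are those of smallest adjusted p in each list (up to 3 in the direction with more calls, 1 in the opposite one) and any of the largest 2 by TPM. PHLDA1, CCND1, EPHA2, EPHA4, RPS6KA5, SPRED3, ELK3, ELK4, RPS6KA3, GRB2, CRKL, RASA2, RASAL2, MAP2K2 and MKNK1 were named after their values were seen. A gene that the rule selects is not reported here by name but remains in the counts. Within a group, replicate counts differed by a chi-square of 1.32 to 6.76 per degree of freedom, and none was treated as a repeat of another. The lowest value was between DMSO replicates 2 and 3. This check cannot show that libraries are independent, which rests on the labels.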

Additional observations from a re-analysis of the deposited data

How the results depend on the processing

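Most values kept their direction and side of the threshold. Over the alternatives run, 157 of the fold changes of the 10 genes did so, 13 newly passed, 2 lost the call and 8 changed sign. For the other pathway genes named, MAP2K2 and MKNK1 aside, 609 did so, 4 newly passed, 41 lost the call and 10 changed sign. On log2(TPM + 1) and log2(TPM + 0.1) with a filter, 2474 and 2444 genes were higher and 7472 and 7299 lower, and without a filter 7365 were lower. With DMSO replicate 3 as the sole control 2740 were lower. In each of the 3 TPM fits, 6 of the other ERK output genes were higher, 1 cascade gene was higher, and 2 of the kinases and ETS factors were higher and 9 lower. In both filtered TPM fits 10 cascade genes were lower, and 3 were when DMSO replicate 3 was the sole control. Paralogues called higher numbered 1 with library totals, 1 when DMSO replicate 3 was the sole control, and 1 to 2 when single libraries were left out. Genes of the 10 called higher numbered 0 to 1 when single libraries were left out.

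Sign changes in the TPM fits were seen for DUSP5 (-0.16 in each), DUSP7 (-0.083, -0.088 and -0.083), RASAL2 (-0.14, -0.16 and -0.14) and RPS6KA5 (-1.32, -1.70 and -1.32). SPRY4 changed sign with DESeq2 size factors (0.0058), with the deep libraries thinned (0.017) and when DMSO replicate 3 was the sole control (0.011), and ranged from -0.10 to 0.030 when single libraries were left out. ERRFI1 changed sign with DESeq2 size factors (0.0083). With a TPM pseudocount of 1 the SPRY4 to SPRY1 log2 ratio differed by 1.86. The cause of these shifts was not tested.

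Same-numbered samples deviated together only weakly (correlations 0.0486, 0.00534 and 0.041), and 4 of 6 libraries correlated best with their own number. With a replicate block 1 of the 10 genes was higher, DUSP5 (0.33, edgeR adjusted p = 0.036), and 7 were lower.

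The 4 shallow libraries set the precision. SPRY1 and SPRY3 had at most 4 counts in a treated library, so the size of their difference rests on few reads.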

Other observations

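Among marker genes used to check the line, the keratin genes KRT7 (log2 fold change 0.88), KRT8 (1.79) and KRT19 (1.02) rose in CCT068127 (edgeR adjusted p = 3.09e-04, 7.71e-07 and 2.53e-04). PDGFRB, a growth factor receptor gene, fell by 2.37 (edgeR adjusted p = 1.44e-06). Of the 6 leukocyte markers 3 were tested. The lysosomal gene CD68 rose by 3.14 and the lysozyme gene LYZ by 3.88, the latter from at most 0.39 TPM in DMSO, whereas the monocyte receptor gene CD14 fell by 0.94 (edgeR adjusted p = 5e-07, 1.65e-06 and 0.0461). LYZ passed the low-count filter only through its treated libraries, which had 20, 4 and 16 counts. CD14 needed its DMSO libraries to pass, as its treated libraries had 5, 3 and 12 counts.

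For RPS6KA5, which encodes the kinase MSK1, counts and TPM moved in opposite directions. Its level was 13 ± 1.26 CPM in DMSO and 28.0 ± 1.08 CPM in CCT068127 (SD, n = 3), higher by 1.11 ± 0.13 on the log2 scale (edgeR adjusted p = 3.35e-05). In TPM it was 5.72 in DMSO and 1.70 in CCT068127, with a difference of -1.32 on log2(TPM + 1) (limma adjusted p = 2.29e-04). Over 10343 genes with a mean of at least 5 TPM, the TPM difference lay below the TMM count difference by a median log2 shift of -0.48, with 5% to 95% of genes between -0.61 and -0.27. RPS6KA5, with a mean of 3.71 TPM over the 6 libraries, was outside that set. MKNK1, an ERK-substrate kinase gene within that set, was at -1.16.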
